A study of Mus musculus with 8 samples.

Results

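Endosomes sort internalised and newly made membrane proteins, and the genes that carry out this sorting were examined in mouse aortic smooth muscle cells (AoSMCs) transfected with a moR-21 mimetic. The genes were taken by symbol, as every array probe whose symbol begins with Vps, Chmp or Snx followed by a digit. This gave 93 probes for 65 symbols among the 18138 symbols on the array, of which 29 were Vps, 7 Chmp and 29 Snx symbols. A probe was tested if it was detected above the negative control beads on at least 1 array, and 76 probes for 53 of the 65 symbols passed (24 Vps, 6 Chmp and 23 Snx). The symbols Vps26 and Vps26a name the same gene in RefSeq, so the 53 symbols stand for 52 genes; they are counted by symbol here. Of these, 48 were detected at their brightest probe on all 8 arrays and 5 on fewer (Chmp4c, Chmp5, Snx19, Vps26a and Vps26b). The 12 symbols that were not detected were Vps37a, Chmp2b, Vps4b, Vps8, Vps13a, Vps13c, Snx5, Snx20, Snx22, Snx26, Snx29 and Snx31, and no value is given for them.

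Primary AoSMCs grown out from aortic explants of several mice were transfected either with the moR-21 mimetic or with a scrambled oligonucleotide, each at 5 nM, and RNA was collected after 48 h. There were 3 control samples and 3 moR-21 samples, and a pair of arrays was hybridised for each of control 1 and moR-21 3 and then averaged. The labels give neither the strain nor the age of the mice. Both treatments shared the transfection reagent, and untransfected cells were not analysed here. The labels do not say that the samples of a treatment were separate cultures. The p-values set a difference against the spread between these samples, partly pooled over probes by limma, and that spread may be technical.

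The arrays were alike in signal, with a median intensity between 102 and 109 and between 10285 and 10512 probes detected. The sample descriptions name endothelial cells where the source field names smooth muscle cells. Of 5 endothelial markers, Cdh5, Kdr, Pecam1 and Tek were not detected, and Vwf lay near background. Of 6 smooth muscle markers, Acta2 (the smooth muscle actin) was bright, Smtn was detected and Tagln lay near background and was detected on 4 of 8 arrays, whereas the contractile genes Myh11 and Cnn1 and the coactivator Myocd were not detected. All 3 fibroblast markers were detected, with control means of 13.34 (Dcn), 11.38 (Lum) and 9.96 (Pdgfra) on the log2 scale. Of 3 mesothelial markers on the array, Upk3b had a control mean of 9.26 and Krt19 of 7.33, and Msln was not detected. Of 5 macrophage markers, Cd14 had a control mean of 10.43, Csf1r lay near background (6.87), and Cd68, Emr1 and Ptprc were not detected. These markers therefore do not settle the cell type.

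Vps and Chmp genes take their names from yeast mutants that missort vacuolar proteins and from charged multivesicular body proteins. Their products work as complexes. The GARP complex tethers vesicles that return from endosomes to the trans-Golgi network, the retromer and its sorting nexins retrieve receptors from endosomes, HOPS and CORVET tether late and early endosomes, and the ESCRT complexes bend membrane inward to form multivesicular bodies and close the neck of the bud. Sorting nexins (Snx) bind phosphoinositides on endosomal membranes through a shared PX domain. In smooth muscle as in other cells, these routes decide whether growth factor receptors are returned to the surface or sent to the lysosome.

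A moR, or microRNA-offset RNA, is a small RNA cut from the precursor hairpin beside the mature miRNA. Both small RNAs of the hairpin arm are shown here because the mimetic differs from the miRNA in the bases that pair with targets. The sequences are those of RefSeq for the mir-21a hairpin in GRCm38.p6, on the minus strand of chromosome 11, written 5′ to 3′, and capitals mark bases 2 to 8 of each small RNA. The hairpin record starts at base 2 of moR-21, so 1 further base upstream is left out, and the stretch is the part that lies before the mature miRNA.
moR-21 stretch of the hairpin, chr11:86584142-86584158: UGUACCAccuugucgga
miR-21a-5p, chr11:86584120-86584141: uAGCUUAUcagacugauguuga
The stretches of 7 bases in capitals are not the same in both RNAs, although they share a G at the same position, and the complement of the moR-21 bases is UGGUACA. No 3′UTR sequences were used here, so whether a transcript of the Vps, Chmp or Snx genes holds that complement was not analysed.

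Most of the endosomal sorting genes moved little. At the brightest probe of each gene, 41 of 53 had a log2 fold change (moR-21 over control) smaller than 0.2 in size, the median was -0.00050 and the median size was 0.08, while over all 8727 genes tested the median was 0.0056 and the median size 0.10. A gene was called changed at a fold change over 1.3 with an adjusted p under 0.002, in limma fitted over all 11651 detected probes with Benjamini-Hochberg adjustment. By this criterion 5 of 53 genes (9.43%) were called, against a background of 7.79% of all genes tested. Vps54 and Chmp1b fell, which is 2 of 53 against 4.38% of all genes called lower, and Snx10, Vps16 and Vps29 rose, which is 3 of 53 against 3.41% called higher. The 3 control and the 3 moR-21 samples did not overlap for 19 of 53 genes (35.8%), 9 lower and 10 higher with moR-21, and this share was below the 46.3% found over all genes tested. At any fold change, 8 of 53 genes (15.1%) had an adjusted p under 0.002, against 17.1% of all genes.

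**Figure D1:**
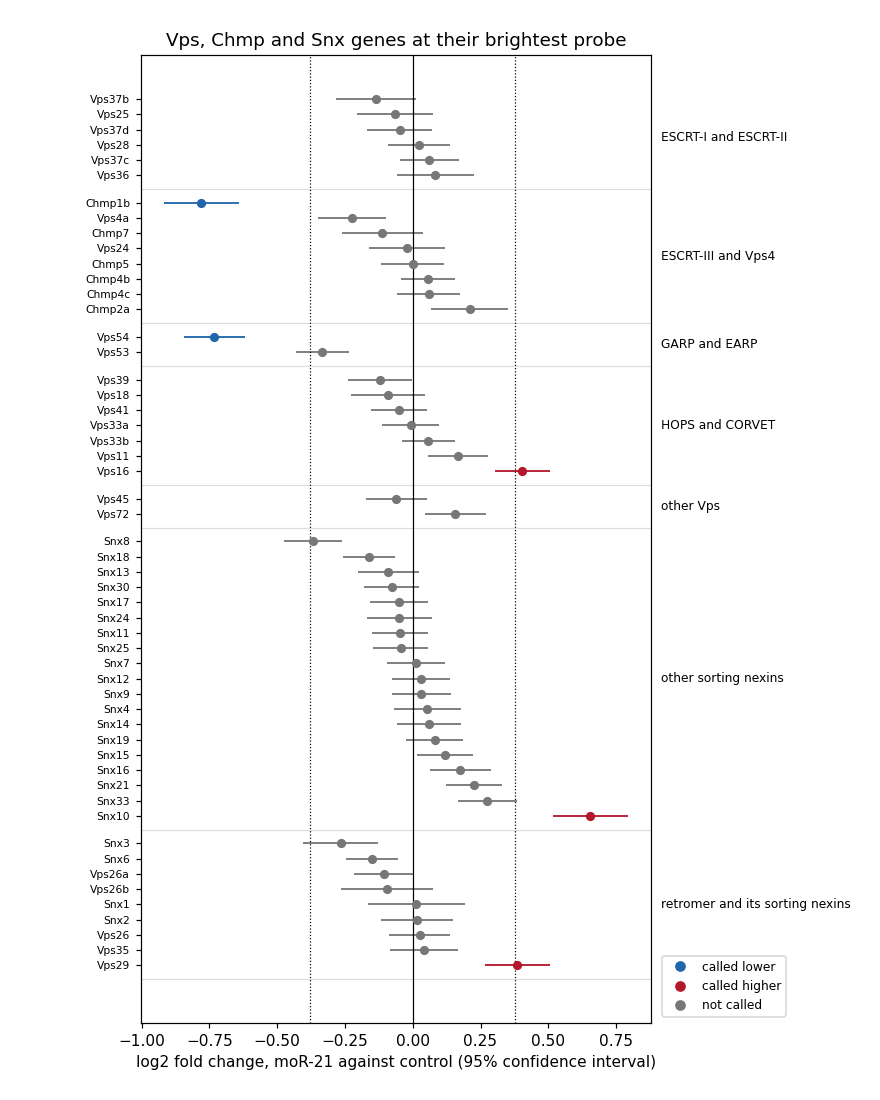
Log2 fold change of each of the 53 tested genes at its brightest probe (x axis, moR-21 against control; points are the limma estimates, bars the 95% confidence intervals, 3 samples per treatment), grouped by complex, with dotted lines at the fold change of 1.3. Vps54 and Chmp1b lie left of the lower line, Snx10 lies far to the right, and Vps16 and Vps29 lie just past the upper line.

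Some markers of the cell types that an aortic explant could hold also differed between the treatments, and in whole cultures a change in the share of a cell type and a change in RNA per cell cannot be told apart. The summed signal of the 3 detected smooth muscle markers was 9694 to 10060 in controls and 12470 to 13320 with moR-21, and this sum was mostly Acta2, which was called higher (0.40). Smtn was at -0.05 with overlapping samples and Tagln at 0.20, neither called. Tagln read 6.72 to 6.76 on the control arrays and 6.89 to 6.98 on the moR-21 arrays. With detection on only 4 arrays, it may have passed the filter only through the treatment in which it was higher. The 3 fibroblast markers summed to 13680 to 14260 in controls and 11090 to 12340 with moR-21, with Lum called lower (-0.56). Of 3 mesothelial markers on the array Msln was not detected, and the summed signal of Krt19 and Upk3b was 771 to 780 in controls and 402 to 416 with moR-21, with Upk3b called lower at -1.24 and Krt19 at -0.13 with overlapping samples. Of 5 macrophage markers, Cd68, Emr1 and Ptprc were not detected, and the sum of Cd14 and Csf1r was 1460 to 1529 in controls and 1244 to 1271 with moR-21. Cd14 carried this difference (-0.27, not called), and Csf1r, near background, was at -0.01 with overlapping samples. The endothelial sum overlapped, at 117 to 120 and 119 to 127. These shifts run alongside the changes in the endosomal sorting genes described here, Vps54, Chmp1b, Snx10, Vps16 and Vps29 among them, and their part in those changes was not tested.

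Vps54, a subunit of the GARP complex that also helps to hold it on the trans-Golgi membrane, was read by a single probe on these arrays. The gene lies on chromosome 11 from 21239032 to 21321133 in GRCm38.p6. Its normalised log2 signal was 9.18, 9.14 and 9.11 in the control samples and 8.51, 8.34 and 8.38 in the moR-21 samples. All moR-21 samples were below all control samples, with a gap far wider than the spread within either treatment (SD 0.036 and 0.087, n = 3 each). The log2 fold change was -0.73 ± 0.052 (SE), a signal 1.66-fold lower, with a limma adjusted p of 1.51e-07 and a 95% confidence interval from -0.84 to -0.62.

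Vps53, the GARP subunit that pairs with Vps54, was lower by a smaller amount. The signal at its brightest probe was 10.77, 10.76 and 10.72 in controls and 10.43, 10.37 and 10.45 with moR-21. The treatments did not overlap, and the log2 fold change was -0.33 ± 0.046 (SE, limma adjusted p 7.16e-05), a 1.26-fold difference that stays under the fold cutoff. Both other probes of Vps53 were lower as well, by log2 fold changes of -0.29 and -0.28 with adjusted p-values of 0.0013 and 0.0014 in limma, so that its 3 probes lay close together. Per sample, the log2 signal of Vps54 less that of Vps53 was lower with moR-21 by 0.40 on the log2 scale, and the 3 values of each treatment did not overlap. The exact two-sided permutation test of that difference gave p = 0.1, which is the smallest p that 3 against 3 samples allow. Vps51 and Vps52, the remaining GARP subunits, were not analysed here.

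**Figure D2:**
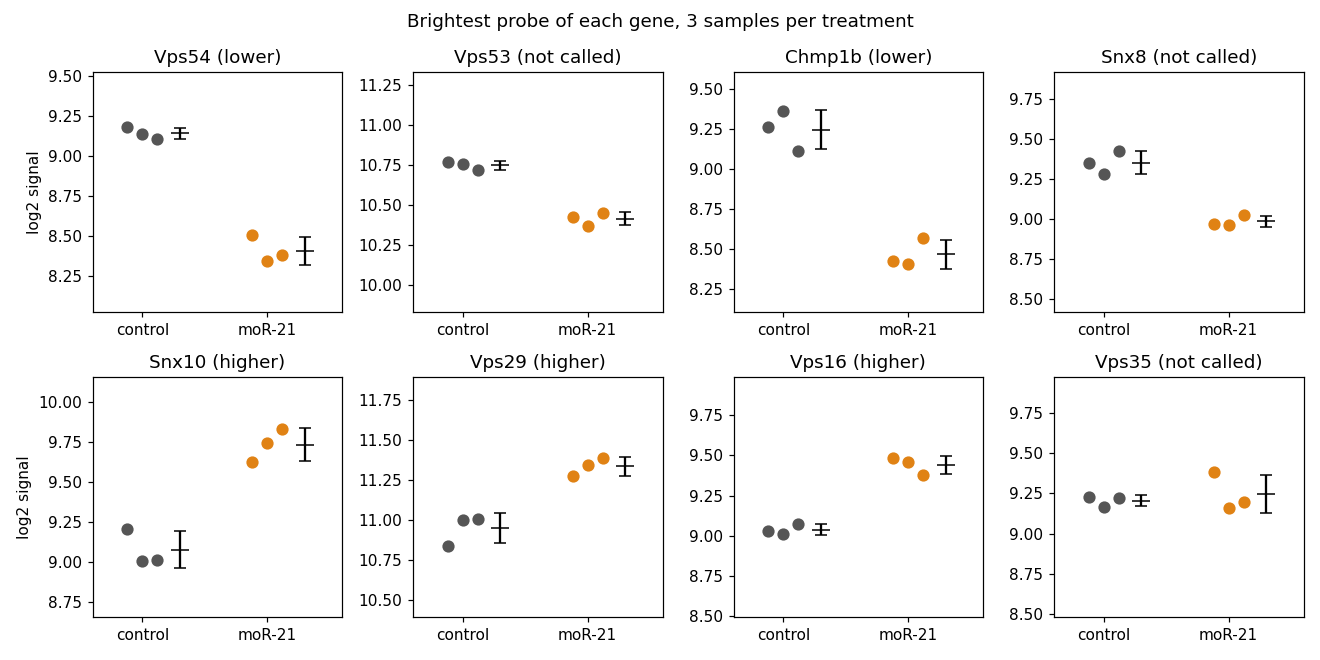
Normalised log2 signal (y axis, the same span of 1.5 in each panel) of 8 endosomal sorting genes at their brightest probe, by treatment on the x axis. Points are the 3 samples per treatment, and the dash with its bar is the mean ± SD; the treatments overlap for Vps35 and for no other gene drawn.

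Chmp1b, a late-acting ESCRT-III subunit that recruits the Vps4 ATPase and the microtubule-severing protein spastin, had the largest change of the 53 genes in either direction. It lies on chromosome 18 from 67205359 to 67207887 in GRCm38.p6. The log2 signal was 9.26, 9.36 and 9.11 in controls and 8.43, 8.40 and 8.57 with moR-21, again with no overlap. The log2 fold change was -0.78 ± 0.064 (SE, 1.72-fold lower, limma adjusted p 6.37e-07). Its paralog Chmp1a, listed on the array under the older symbol Pcoln3, was not detected, so the pair could not be compared.

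The other ESCRT-III genes did not pass the test. Vps4a, the ATPase that takes ESCRT-III filaments apart, had signals of 8.57, 8.76 and 8.78 in controls and 8.51, 8.45 and 8.49 with moR-21, which is -0.22 on the log2 scale (adjusted p 0.0085 in limma). Chmp2a, another core filament subunit, lay on the opposite side, at 9.59, 9.72 and 9.68 in controls against 9.75, 10.04 and 9.83. Its log2 fold change was 0.21 (limma adjusted p 0.0235) at this probe and 0.29 and 0.02 at dimmer ones, and without moR-21 sample 2 it was 0.13 (limma adjusted p 0.102). These were the members nearest to a call, and neither passed the fold cutoff. The log2 fold changes of Chmp4b, Chmp4c, Chmp5, Chmp7 and Vps24 (now Chmp3) were between -0.11 and 0.06, with overlapping samples, and Chmp4c was detected on only 1 array. Of the 8 ESCRT-III and Vps4 genes tested, 1 was called lower (12.5%), against 4.38% of all genes. Fold changes were negative for 5 and positive for 3, and 48.2% of all genes tested had negative ones.

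None of the 6 ESCRT-I and ESCRT-II genes with a Vps symbol was called, against 7.79% of all genes tested. None had samples that did not overlap, against 46.3% of all genes, and none had an unadjusted limma p under 0.05. The largest difference among them was that of Vps37b, an ESCRT-I subunit, with signals of 8.40, 8.45 and 8.24 in controls and 8.26, 8.08 and 8.35 with moR-21. Its log2 fold change was -0.14, with a 95% confidence interval from -0.28 to 0.01. Vps28, another ESCRT-I subunit, differed by 0.02, and Vps25, Vps36, Vps37c and Vps37d by -0.07 to 0.08.

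Within the retromer, Vps29 was called higher. It forms the cargo recognition trimer with Vps35 and a Vps26 protein, and it lies on chromosome 5 from 122354328 to 122364984. The signal was 10.84, 11.00 and 11.01 in controls and 11.28, 11.34 and 11.39 with moR-21. Every moR-21 sample was above every control sample, by 0.39 ± 0.056 on the log2 scale (SE, 1.31-fold higher, limma adjusted p 1.05e-04). This lies just inside the fold cutoff, and without control sample 1 or without moR-21 sample 3 the log2 fold change was 0.33 and 0.36 and the gene was no longer called. A dimmer probe of Vps29 was called higher too (0.46), and the dimmest was not (0.13, adjusted p 0.228 in limma, samples overlapping).

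Vps35, the scaffold of the trimer, had signals of 9.22, 9.17 and 9.22 in controls and 9.39, 9.16 and 9.20 with moR-21. The samples overlapped, and the 95% confidence interval of its log2 fold change was -0.08 to 0.17. Vps26a, the partner read under 2 symbols, had log2 fold changes of 0.03 at the bright probe labelled Vps26 and -0.11 at the dim probe labelled Vps26a, which was detected on 6 arrays. Vps26b, also detected on 6 arrays, was at -0.10. The change in Vps29 exceeded that in Vps35 by 0.34, that in the bright Vps26 probe by 0.36, that in the dim Vps26a probe by 0.49 and that in Vps26b by 0.48 on the log2 scale. None of these per-sample differences overlapped between treatments, and each exact two-sided permutation test gave p = 0.1, which 3 against 3 samples cannot go below. The comparison with the bright probe was added after the values were seen.

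Of the sorting nexins that work with the retromer, Snx3, which recruits it for some cargoes, had the largest difference. Its signal was 7.00, 7.22 and 7.26 in controls and 6.84, 6.90 and 6.94 with moR-21, which is -0.27 on the log2 scale (adjusted p 0.00512 in limma). This Snx3 probe is dim, and the repeat arrays A and B of control 1 read 7.12 and 6.88. Snx6, a subunit of the tubule-forming SNX-BAR coat, was at -0.15 with an adjusted p of 0.0168 in limma and no overlap. Snx1 and Snx2, its coat partners, were at 0.01 and 0.02 with overlapping samples. Neither gene with non-overlapping samples passed the fold cutoff, although Snx3 was at -0.72 with normexp background correction (adjusted p 0.0119 in limma, not called). Vps29 was the only call among the 9 symbols, or 8 genes, tested in this group (11.1% of symbols, against 7.79% of all genes called).

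Vps16, a core subunit shared by HOPS and CORVET, rose. It lies on chromosome 2 from 130424320 to 130444269 and was read by 4 probes. At the brightest, the signal was 9.03, 9.01 and 9.07 in controls and 9.48, 9.46 and 9.38 with moR-21. The treatments were apart by several times their SDs (0.032 and 0.054), and the log2 fold change was 0.40 ± 0.047 (SE, 1.32-fold higher, limma adjusted p 1.78e-05). The 3 dimmer probes were also higher with moR-21 without overlap, by 0.20, 0.28 and 0.28, and none of them passed the fold cutoff. When the detected probes of a gene were averaged, neither Vps16 nor Vps29 was called.

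**Figure D3:**
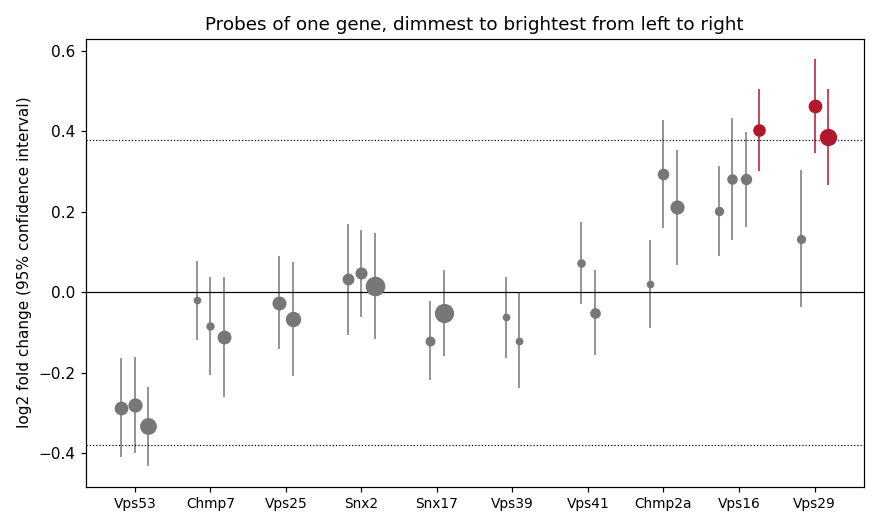
Log2 fold change (y axis, moR-21 against control) of each detected probe of 10 genes with several probes, which were chosen to show the called genes beside others. Within a gene (x axis) probes run from dimmest to brightest, larger points are brighter probes, bars are 95% confidence intervals, dotted lines mark the fold change of 1.3 and red marks called probes; the 3 probes of Vps53 lie together below 0 and the 4 probes of Vps16 above 0, while the dimmest probes of Chmp2a and Vps29 lie nearer 0 than the others.

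The other genes grouped with Vps16 were not called. Vps11, another core subunit, had signals of 7.94, 7.90 and 8.03 in controls and 8.07, 8.19 and 8.11 with moR-21, which is 0.17 on the log2 scale (adjusted p 0.0214 in limma). Vps39, a HOPS-specific subunit, was at -0.12 without overlap, with an adjusted p of 0.110 in limma. Vps18, Vps33a and Vps41 overlapped between treatments, with log2 fold changes of -0.09, -0.01 and -0.05. So did Vps33b (0.06), a paralog of Vps33a that is grouped with it here but works in a separate complex with Vipas39. The change in Vps16 exceeded that in Vps11 by 0.24, that in Vps18 by 0.49 and that in Vps33a by 0.41. None of these differences overlapped between treatments, but Vps16 was the called gene of each pair, which favoured such separation.

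Snx10, a sorting nexin made of little more than its PX domain and known for its need in osteoclasts, had the largest rise. It lies on chromosome 6 from 51523900 to 51590679. The signal was 9.21, 9.01 and 9.01 in controls and 9.62, 9.74 and 9.83 with moR-21. The treatments did not overlap, and the log2 fold change was 0.66 ± 0.064 (SE, 1.57-fold higher, limma adjusted p 3.31e-06). Snx11, its closest paralog, was at -0.05 with a 95% confidence interval of -0.15 to 0.06, and the change in Snx10 exceeded that in Snx11 by 0.70 with no overlap per sample. Over the 8 pairs of partners or paralogs compared, each exact two-sided permutation test gave p = 0.1, the smallest possible, and 0.1 after Benjamini-Hochberg adjustment. Each pair set a called gene (Vps54, Vps29, Vps16 or Snx10) against a gene not called, which favoured differences without overlap. These differences are therefore no separate support for the calls.

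Snx8, a SNX-BAR protein of endosome to Golgi transport, lay just outside the fold cutoff. Its signal was 9.35, 9.28 and 9.43 in controls and 8.97, 8.96 and 9.03 with moR-21. The treatments did not overlap, and the log2 fold change of -0.37 ± 0.050 (SE, 1.29-fold lower, limma adjusted p 6.21e-05) compares with a cutoff of 0.3785 in size. Snx8 was called lower in the fits without control sample 2 and without moR-21 sample 3, at -0.40 and -0.39. Over all samples, Snx8 was also called lower with median scaling and with cyclic loess. Snx33, an SH3-domain sorting nexin of endocytosis, was at 0.28 (limma adjusted p 6.89e-04), and Snx21 at 0.23 (limma adjusted p 0.00207), both without overlap and under the fold cutoff. The 15 other sorting nexins outside the retromer group had log2 fold changes between -0.16 (Snx18) and 0.18 (Snx16, 0.34 and not called with normexp correction).

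Of the Vps genes outside these complexes, Vps72, a chromatin protein whose symbol fits the rule although it has no known role in endosomal sorting, was at 0.16 (limma adjusted p 0.0332, no overlap) and at 0.37 with normexp correction, where it was not called either. Vps45, a partner of endosomal SNAREs, was at -0.06 with overlapping samples.

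Other genes of the same routes, named for their function and not by these symbols, were looked up from a list of 58, of which 51 were found on the array and 45 were tested. Called lower were 2 of 45 genes and called higher was 1 of 45, against the same 4.38% and 3.41% of all genes, and the median log2 fold change was -0.03. The 20 genes without overlap made up 44.4%, against 46.3% of all genes tested.

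Sort1, which encodes sortilin, a receptor that shuttles cargo between the trans-Golgi network and endosomes, fell most. The signal at its brightest probe was 9.59, 9.55 and 9.54 in controls and 8.59, 8.40 and 8.51 with moR-21. The treatments did not overlap, and the log2 fold change was -1.06 ± 0.052 (SE), a signal 2.09-fold lower. A second bright probe gave -0.96 (both called lower in limma). The other 2 probes of Sort1, near background, were at -0.00061 and 0.03 with overlapping samples, and the mean of its detected probes was at -0.50, still called.

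Ubap1, an ESCRT-I subunit without a Vps symbol, had signals of 8.17, 8.13 and 8.13 in controls and 7.67, 7.66 and 7.69 with moR-21. This was a log2 fold change of -0.47 ± 0.044 (SE), 1.39-fold lower and called, and -0.72 with normexp correction. Commd1, a subunit of the CCC complex that works with the retriever and WASH complexes, had signals of 9.79, 9.73 and 9.95 in controls and 10.11, 10.36 and 10.18 with moR-21. It was called higher at 0.39 ± 0.068 (SE, limma adjusted p 4.95e-04), near the fold cutoff, and its dimmer probe was at 0.05 with overlapping samples (0.22 for the mean of both, not called). The call of Commd1 was lost without control sample 1 (0.38), without control sample 2 (0.35) or without moR-21 sample 2 (0.32). Washc3, a WASH complex subunit listed on the array as Ccdc53, was at 0.36 (limma adjusted p 2.48e-04) and not called, but it was called higher without control sample 2 (0.40), moR-21 sample 1 (0.39) or moR-21 sample 3 (0.38), and its dimmer probes were at 0.06 and 0.19 with overlapping samples. Ap1m1, a subunit of the AP-1 adaptor, was at -0.36 and not called, and it was called lower at -0.40 without control sample 1 and at -0.38 without control sample 3 or moR-21 sample 1. Of the 10 cargo receptors and adaptors tested, 9 had negative fold changes, whereas 48.2% of all genes tested did. Samples did not overlap for 5 of the 10, against 46.3% of all genes. Sort1 alone was called (10.0%, against 7.79% of all genes). In the other groups of this list, between 33.3% and 66.7% of the genes tested had negative fold changes.

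**Figure D4:**
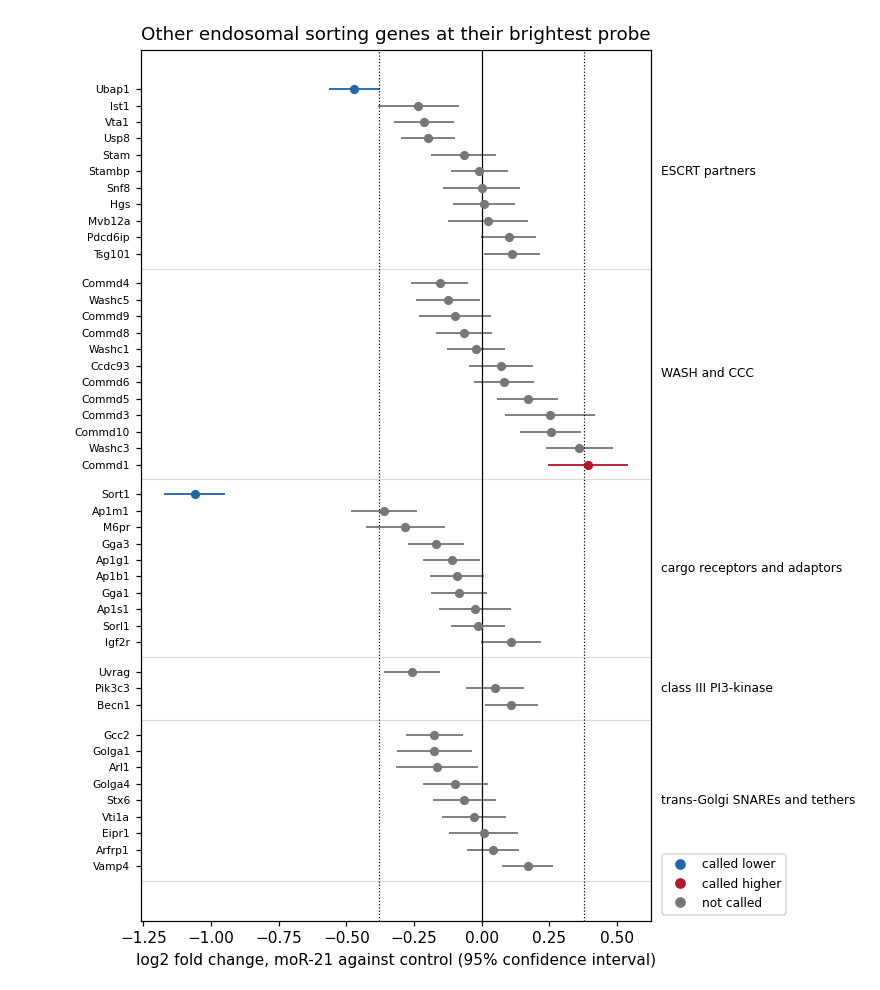
Log2 fold change (x axis, moR-21 against control; bars are 95% confidence intervals, 3 samples per treatment) of the 45 other endosomal sorting genes tested, at the brightest probe and grouped by function, with dotted lines at the fold change of 1.3. Sort1 lies at -1.06 and Ubap1 at -0.47, left of the lower line, and Commd1 at 0.39 lies just right of the upper one.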

How the data were processed

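The authors deposited non-normalized bead intensity values for 25697 probes on 8 Illumina mouse expression BeadChips, each with a detection p-value that the authors' scanner software computed against negative control beads. Per the labels, the package lumi was used, and the study's methods name quantile normalization and limma; they name both the MouseWG-6 and the MouseRef-8 design. Here intensities were quantile normalized over all 8 arrays and put on the log2 scale, arrays A and B of control sample 1 and of moR-21 sample 3 were averaged (r = 0.998 each), and limma's lmFit and eBayes were fitted to 3 control and 3 moR-21 samples over the 11651 probes (8727 symbols) with a detection p under 0.01 on at least 1 array. Calls took the study's cutoffs, a Benjamini-Hochberg adjusted p under 0.002 with a fold change over 1.3, and the brightest detected probe stood for a gene. The number of arrays limits the precision. Levels of different probes were not compared; pairs were compared by their per-sample log2 differences with exact permutation tests.

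Genes were taken by symbol. Of the 65 symbols 62 are current in RefSeq and 3 are synonyms (Vps26, Vps24, Snx26), and positions are those of GRCm38.p6, since the array table gives none. The members, the 58 further genes and the markers were chosen with earlier results of these data known. Named in the text were Vps54, every called gene, each detected gene that shares a complex with one, the largest difference per class, genes that gained or lost a call under an alternative, and genes of the second list called in any fit; Snx33 and Snx21 were added after their values were seen, as were the endpoints of ranges. The limma fit with its call cutoffs was tested on simulated data, without the normalization and the detection filter. Results were recomputed with cyclic loess, with median scaling, with normexp correction of the background (offset 16), with a stricter or no detection filter, with array A or array B alone, duplicateCorrelation over 8 arrays, eBayes with trend and robust, a replicate block, the mean of a gene's probes, a fold change over 1.5 or an adjusted p under 0.05 in place of the study's cutoff, and each sample left out. Fits were made with limma 3.58.1 (R 4.3.3), and tables and figures with pandas 2.3.3, scipy 1.17.1 and matplotlib 3.10.9 under Python 3.11.15.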

Additional observations from a re-analysis of the deposited data

How the results depend on the processing

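Over 20 alternatives, of which array A alone normalized without the B arrays was chosen after seeing the data, Vps54 (log2 fold change -0.91 to -0.70), Chmp1b (-0.95 to -0.72), Snx10 (0.61 to 0.75) and Sort1 (-1.27 to -0.50) were called in 20, Ubap1 in 19, Vps16 in 17, Vps29 in 13 and Commd1 in 12, and Snx8, not called in the fit reported, in 4. Ap1m1 and Washc3, also not called there, were each called in 3. Not every alternative could remove a call, since an adjusted p under 0.05 only loosens the cutoff. The mean of probes left the log2 fold changes of Vps54, Chmp1b and Snx10, each read by a single probe, as they were. These counts are therefore not a like measure of stability between genes with a single probe and genes with several. The samples share replicate numbers, but same-numbered samples deviated together only weakly (r of 0.187, 0.044 and 0.060). Samples of different numbers had r between -0.13 and 0.069. This check does not settle whether the numbers mark pairs, and they were not taken as pairs. With a replicate block 2 genes were called lower and 3 higher, the same counts. With each sample left out in turn, Vps54 ranged from -0.78 to -0.70, genes called lower from 2 to 3 and called higher from 2 to 3, and of the second list 2 to 3 were called lower and 0 to 2 higher. The genes called higher fell to 1 with the mean of a gene's probes and with a fold change over 1.5, under which the second list had 1 lower and 0 higher; its higher count was also 0 with normexp correction, median scaling, no detection filter and the mean of probes. The smallest of the 8 differences between partners or paralogs was 0.24, between Vps16 and Vps11. It was 0.12 with the mean of probes and 0.19 to 0.26 with samples left out. No difference turned its direction under any alternative, but each pair set a called gene against a gene not called, which made a turn unlikely beforehand.

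Of 42 genes compared, 9 changed sign somewhere, all uncalled and at most 0.0504 in size. With array A alone Snx1 was at -0.0334, Snx2 at -0.0279, Vps24 at 0.00237 and Vps33a at 0.0275, and with array A alone normalized without the B arrays at -0.0332, -0.0288, 0.00204 and 0.0275. Chmp5 was at 0.0125 with array B alone and 0.00727 with duplicateCorrelation, Snx2 at -0.00942 with duplicateCorrelation and -0.0122 with cyclic loess, and Vps41 at 0.0113 with the mean of probes. With single samples left out, the ranges that crossed 0 were those of Chmp5 (-0.0363 to 0.0438), Snx1 (-0.0694 to 0.14), Snx2 (-0.0502 to 0.0651), Vps24 (-0.11 to 0.042), Vps26 (-0.00319 to 0.0617), Vps28 (-0.0201 to 0.0757), Vps33a (-0.0429 to 0.0136) and Vps35 (-0.0272 to 0.0846). The cause of these shifts was not tested. Probes near background, such as those of Chmp4c, Chmp5 and Snx19, carry little signal to show a difference.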
